A study of Mus musculus with 4 samples.

Results

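The miR-466 and miR-297 families are the repeated miRNAs for which the Sfmbt2 gene is known. The members were taken by name: every mature miRNA listed as mmu-miR-466 or mmu-miR-297, followed by a letter, a hyphen or nothing, on any arm. This gave 37 of the 1907 mature miRNAs listed, 31 of miR-466 and 6 of miR-297. Of these, 16 were 5p names, 16 were 3p names and 5 carried no arm, and 16 hairpin names were listed with both arms.

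Small RNA-seq was run on E14Tg2A, a mouse embryonic stem (ES) cell line of strain 129/Ola, and on epiblast-like aggregates (ELA) made from it. ES serum cells (day 0) were kept in 10% fetal calf serum (FCS) with leukemia inhibitory factor (LIF) at 1000 U/mL. ES 2iL cells (day 0) had been moved to serum-free medium with the MEK inhibitor PD0325901 at 1 µM, the GSK3 inhibitor CHIR99021 at 3 µM and the same LIF. ELA serum and ELA 2iL were each of these cell populations 2 days after they had been set to float as aggregates in CDMM, a chemically defined medium without LIF, so "serum" and "2iL" name the past of the aggregates and not the medium they were in. All 4 groups came from this 1 line. Each group was 1 library, made from RNA pooled over 3 sets of experiments, so the spread between experiments could not be measured.

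The ES serum library held 8056984 miRNA reads, ES 2iL 2767016, ELA serum 4309257 and, as the shallowest, ELA 2iL 587363. Wherever 4 values are listed below without names, they follow this order, both ES libraries first. Levels are given in RPM, reads per 1000000 miRNA reads, and 1 read was worth 0.124, 0.361, 0.232 and 1.70 RPM. Titles, source names and column names agree on what each library was, but the free-text description exchanges ES 2iL and ELA serum. Under the descriptions the contrasts of stage and of medium would change places. The cluster of miR-302 and miR-367, a marker of primed cells, stood at 5952 and 78.4 RPM in the libraries titled ES serum and ES 2iL, and at 37319 and 7084 RPM in those titled ELA serum and ELA 2iL. The cluster from miR-290 to miR-295, a marker of naive ES cells, stood at 86119 and 183326 RPM in the ES libraries and at 55535 and 140756 RPM in the ELA libraries made from them. The titles were used throughout.

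A miRNA is cut from a hairpin, and either of its arms (5p or 3p) can be loaded into Argonaute, where bases 2 to 8, the seed, pair with target mRNAs. Sfmbt2 encodes a Polycomb-group protein, is expressed from the paternal allele in extraembryonic tissue, and holds in 1 intron a large cluster of miRNA hairpins that is found in rodents and is needed for normal growth of the placenta. The cluster is built from copies of a few families, miR-466, miR-297, miR-467 and miR-669, and the single names within a family differ by few bases. The targets of most single names are not well established.

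The mm9 annotation (GENCODE M1) placed 36 hairpins of the 2 families, 29 of them in 1 intron of Sfmbt2. They lay on the + strand, the strand of the gene, at chr2:10388571-10438791, inside the intron at chr2:10383100-10445571 of a gene that runs over chr2:10292137-10516880. These were 24 miR-466 and 5 miR-297 hairpins, interleaved with 44 hairpins of miR-467 and miR-669. A run of 14 miR-466 hairpins from Mir466b-1 to Mir466p, of the types b, e, c and p, was spaced by 2413 to 2470 bp (median 2449). The hairpins of miR-466d, miR-466n, miR-466h and miR-466g stood past its end, with most of miR-297. The other 7 hairpins lay elsewhere: those of miR-466k and miR-466i in introns of Arfip1 and Cdk13 on the opposite strand, those of miR-466j, Mir466f-4 and 3 of miR-297 in other places.

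**Figure D1:**
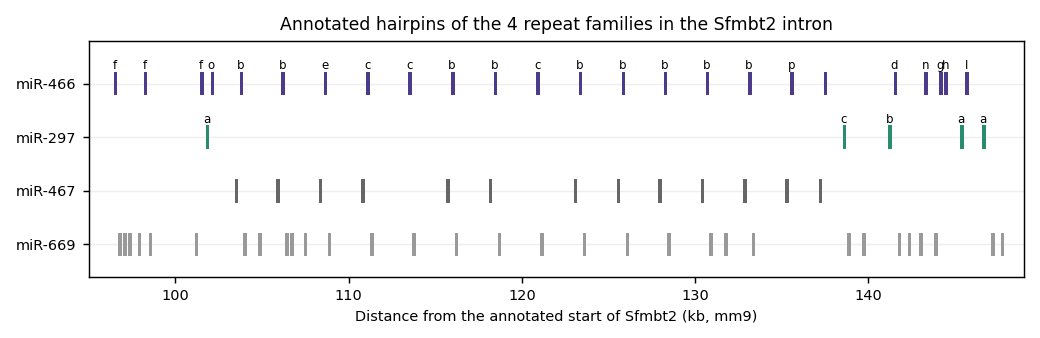
Hairpins of the 4 repeat families in the Sfmbt2 intron, by distance in kb from the annotated start of Sfmbt2 (mm9). Each tick is 1 annotated hairpin and letters give its type. The evenly spaced run of miR-466b, e, c and p hairpins lies between the miR-466f copies on the left and miR-466d, n, g, h and l on the right.

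Mature sequences were held by the RefSeq table (GRCm38.p6) for 4 of the 37 members. They are the names whose hairpins lie outside Sfmbt2 (miR-466i, j and k) or were not placed by name (miR-466q), and they are shown as the sequences the table holds. They carried almost no reads. Capitals mark the seed.
mmu-miR-466i-3p: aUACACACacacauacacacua
mmu-miR-466j: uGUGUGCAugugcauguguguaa
mmu-miR-466k: uGUGUGUGuacauguacauguga
mmu-miR-466q: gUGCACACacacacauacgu
No seed was shared among the 4. All of them are made largely of CA or UG repeats, with a longest unbroken run of 11, 7, 9 and 12 bases in the order shown. miR-466i-3p had 2, 1, 0 and 0 reads, miR-466j 0, 0, 2 and 0, and miR-466k 4, 3, 3 and 0. miR-466q was at 0 in every library. Most reads of the 2 families came from names with hairpins in Sfmbt2. The 23 names placed only there held 4968, 2770, 796 and 246 reads, against 6, 4, 5 and 0 for the 4 names placed only elsewhere.

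The copies share so much sequence that reads could not always have been assigned to 1 name. The 29 hairpins in Sfmbt2 had 22 distinct sequences in mm9, and the 9 hairpins of miR-466b had 5. Windows of 22 bases, about the length of a miRNA, were compared between the names of these 29 hairpins. On the 3p side of the hairpin, all 35 windows of miR-466c and all 33 of miR-466e also occurred in a hairpin of another name, as did 58.1% of those of miR-466b and 17 of the 34 of miR-466p. On the same side, 0 of 37 windows of miR-466n and 2 of 30 of miR-466h were shared. On the 5p side, miR-466d and miR-466e shared all windows, miR-466n 80.6%, miR-466b 69.7%, miR-466c 23.5% and miR-466h none of 30. How reads that map to several copies were counted is not given in the sources used here. Levels of miR-466b, c, e and p and of the 5p arms of miR-466d, n and o are thus less certain one by one than in sum. So are those of miR-297, where 52.6% of the 5p windows of miR-297a and 79.5% and 87.2% of the 3p windows of miR-297b and miR-297c were shared. By exact matches within these 29 hairpins, miR-466h shared few windows and miR-466g none.

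Taken as 1 sum, the members were lower in ELA than in ES after either medium. The sum was 695 RPM in ES serum and 210 RPM in ELA serum (5598 and 905 reads), and 1158 RPM in ES 2iL and 478 RPM in ELA 2iL (3203 and 281 reads). Both ELA libraries lay below both ES libraries. In serum the members thus took 0.0695% of reads in ES (Wilson 95% interval 0.0677 to 0.0713) and 0.0210% in ELA (0.0197 to 0.0224), in 2iL 0.116% (0.112 to 0.120) and 0.0478% (0.0426 to 0.0538). The ELA level was 3.31-fold lower in serum (exact 95% counting interval 3.08 to 3.55) and 2.42-fold lower in 2iL (2.14 to 2.74). 2iL was the higher medium at both stages, 1.67-fold (1.59 to 1.74) in ES and 2.28-fold (1.99 to 2.61) in ELA. With 1 library a group these intervals cover counting error only, and there is no replicate check.

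**Figure D2:**
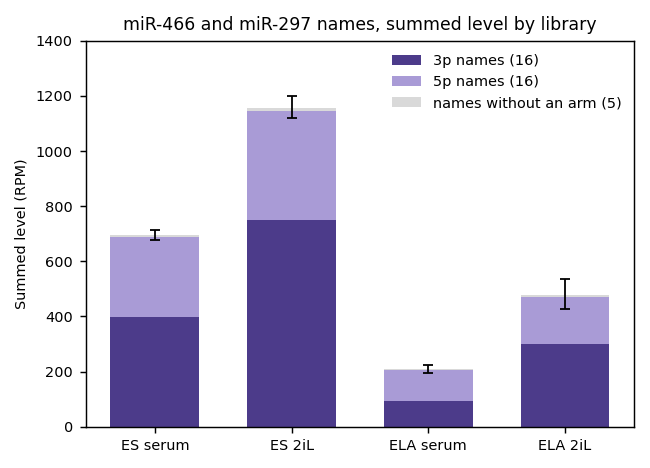
Summed level of the 37 members (RPM, linear axis from 0) in the 4 libraries, split into 3p names, 5p names and names without an arm. Error bars are Wilson 95% intervals of the total and cover counting error only. The 3p part shrinks from 399 to 94.2 RPM between ES serum and ELA serum, the 5p part from 289 to 113 RPM.

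A few names carried most of the reads. miR-466b-3p, the 3p arm of the type with the most hairpins (9 in the intron), held 23.8%, 27.4%, 18.2% and 24.2% of the members' reads. It was the most abundant name in each library. The 5 most abundant names of a library held 55.9% to 61.6% of the members' reads. The 12 names with the highest mean level held 84.1%, 80.0%, 79.9% and 82.2%. The effective number of names (inverse Simpson index) was 10.1, 9.01, 11.3 and 9.37, so the spread of reads over names was much alike in the 4 libraries. At the other end, 13 names were at 0 in ELA 2iL, where 3 reads are 5.11 RPM, and 2 (miR-466i-5p and miR-466q) were at 0 everywhere. Only 17 names had more than 3 reads in every library.

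The 3p arms of the evenly spaced run had their lowest level in ELA serum. miR-466b-3p stood at 166 and 317 RPM in ES (serum, then 2iL) and at 38.3 and 116 RPM in ELA. Both ELA values were below both ES values, 4.32-fold lower in serum and 2.74-fold in 2iL. miR-466c-3p was at 72.7, 140, 10.4 and 63.0 RPM, 6.96-fold lower in ELA after serum and 2.21-fold after 2iL. miR-466e-3p (22.6, 36.9, 2.32 and 18.7 RPM) and miR-466p-3p (21.2, 37.6, 3.25 and 13.6 RPM) followed the same order. They were 9.73-fold and 6.53-fold lower in serum, but 1.97-fold and 2.76-fold lower in 2iL. miR-466a-3p, whose hairpin was not placed by name, did so too with 19.7, 43.4, 3.95 and 17.0 RPM, a 5.00-fold and a 2.55-fold difference. In these 5 names ELA 2iL held between 3.02-fold (miR-466b-3p) and 8.07-fold (miR-466e-3p) more than ELA serum, whereas ES 2iL held between 1.63-fold (miR-466e-3p) and 2.20-fold (miR-466a-3p) more than ES serum. Of these, miR-466b, c, e and p share 3p sequence, as given above, and are not independent of each other, while miR-466a was not in that comparison. A hairpin of the intron annotated as Mir466 with no letter, which was not tied to a listed name, shared 5 of 26 windows on its 3p side and 24 of 26 on its 5p side with other names.

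The 5p arms of the same hairpins differed less between ES and ELA in serum. miR-466c-5p stood at 48.9, 80.6, 22.5 and 49.4 RPM, so that ELA 2iL was level with ES serum, while each ELA library lay below its own ES library. The differences were 2.17-fold in serum and 1.63-fold in 2iL (log2 counting intervals -1.46 to -0.80 and -1.32 to -0.14). miR-466b-5p was at 55.9, 56.4, 23.7 and 28.9 RPM, 2.36-fold and 1.95-fold lower in ELA, with little difference between the media at either stage. miR-466e-5p (6.33, 6.87, 3.48 and 0 RPM), miR-466p-5p (3.72, 6.87, 2.09 and 0 RPM) and miR-466a-5p (3.97, 8.31, 2.78 and 0 RPM) were low throughout. In serum they were lower in ELA by 1.82-fold, 1.78-fold and 1.43-fold, with log2 counting intervals that hold 0 for miR-466p-5p and miR-466a-5p. Having no read in ELA 2iL, they were lower there by at least 1.34-fold, 1.34-fold and 1.63-fold (against a floor of 3 reads in that library). The exact counting intervals of miR-466e-5p and miR-466p-5p in 2iL reached up to a log2 ratio of 0.014 and so hold 0. That of miR-466a-5p reached up to -0.29. All of these allow smaller differences than the values against the floor.

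Past the end of the run, the hairpins behaved in several ways. miR-466h-5p, which shared no window on its side of the hairpin, stood at 60.2, 53.5, 25.8 and 37.5 RPM. It was 2.34-fold lower in ELA in serum, and in 2iL 1.43-fold lower with a counting interval on the log2 scale (-1.23 to 0.14) that holds 0. Its other arm, miR-466h-3p, was at 5.21, 9.04, 0.928 and 0 RPM, that is 5.62-fold lower in serum and at least 1.77-fold in 2iL against the floor of 3 reads. The exact counting interval of miR-466h-3p in 2iL reached up to a log2 ratio of -0.42, a smaller difference than that. miR-466n-5p, at 29.2, 48.8, 6.03 and 5.11 RPM, had the largest difference in 2iL among the named members with reads there. It was 4.83-fold lower in ELA after serum. After 2iL the ratio was 9.55-fold, from 135 reads to 3, with a log2 interval of -5.55 to -1.68. miR-466n-3p stood at 42.0, 37.6, 16.7 and 18.7 RPM, 2.51-fold and 2.01-fold lower in ELA. In miR-466n, then, the 5p arm differed more than the 3p arm, the reverse of miR-466b and miR-466c. Its 5p side shared 80.6% of windows with other names, so its 5p level is less certain.

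Both arms of miR-466d and of miR-297a were lower in ELA as well. miR-466d-5p was at 29.9, 44.8, 9.05 and 11.9 RPM (3.30-fold and 3.76-fold lower) and miR-466d-3p at 15.3, 29.6, 5.34 and 13.6 RPM (2.86-fold and 2.18-fold lower). miR-297a-5p, the leading name of the smaller family, was at 16.8, 30.0, 5.80 and 13.6 RPM (2.89-fold and 2.20-fold lower). miR-297a-3p was at 10.3, 36.5, 4.64 and 10.2 RPM (2.22-fold and 3.57-fold lower). In each of these 4 names the ELA libraries lay below both ES libraries, by a narrow margin for miR-297a-3p and miR-466d-3p. As sums, the miR-297 names were 2.53-fold lower in ELA in serum (2.00 to 3.22) and 2.66-fold in 2iL (1.81 to 4.06), the miR-466 names 3.39-fold (3.15 to 3.66) and 2.39-fold (2.10 to 2.73).

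**Figure D3:**
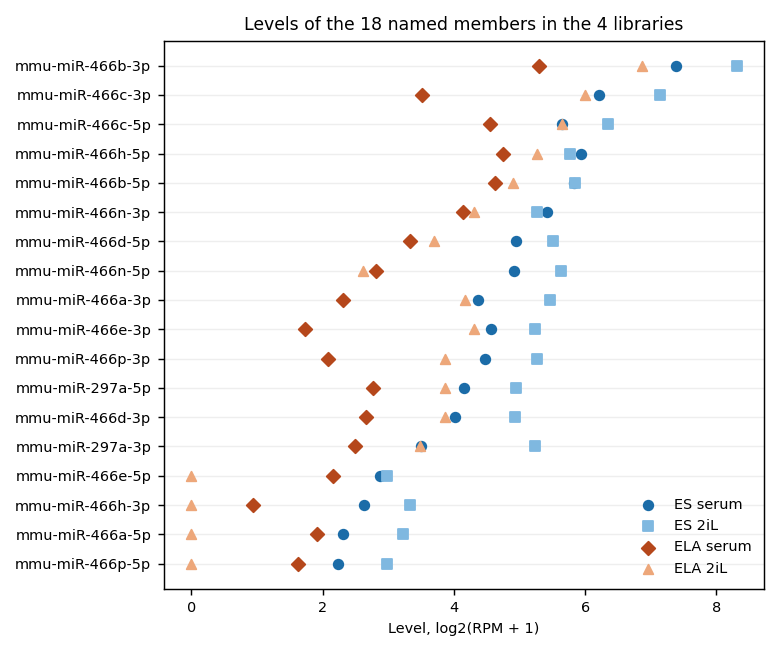
Level of the 18 named members, log2(RPM + 1), in each of the 4 libraries, 1 point per library. For miR-466b-3p, both ELA points (38.3 and 116 RPM) lie left of both ES points (166 and 317 RPM). Points at 0 are names with no read in ELA 2iL.

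The test for stage used all 4 libraries. A limma model of log2(RPM + 1) held a term for stage and one for medium. It was fitted over the 599 miRNAs that reached 10 reads in 2 or more libraries, 28 of them members (12 5p, 14 3p and 2 without an arm). No member passed a Benjamini-Hochberg adjusted p of 0.05 for ELA against ES (0 of 28), and no miRNA of the 599 passed it as lower in ELA (0.0%). At an unadjusted limma p under 0.05, 16 of 28 members were lower in ELA, against 12.9% of all tested (9 of 28 and 9.18% in edgeR). The 16 include miR-297b-3p, miR-466h-3p, miR-466g and miR-466f-3p, which had under 10 reads in both ELA libraries and passed the filter through ES alone. They also include miR-466e-5p, which had no read in ELA 2iL. Under TMM scaling limma called 2 of 28 lower in ELA after adjustment (3.01% of all tested), with library totals taken without the 5 most abundant miRNAs 9 of 28 (7.51%), and without the filter on reads 11 of 35 (4.83%). Members with no read in ELA 2iL, whose value depends on the pseudocount, made up 1, 4 and 4 of these calls. The remaining 1, 5 and 7 had at least 10 reads in an ELA library. On the recovered reads, edgeR called 1 of 28 members lower in ELA (2.17% of all tested) and DESeq2 called 1 (2.67%; it gave 5 members no adjusted p), in each case miR-466n-5p, which fell. Its limma stage contrast was -2.56 ± 0.49 (log2, SE), with an adjusted p of 0.133 in limma, 0.033 in edgeR's quasi-likelihood test and 0.0237 in DESeq2. The contrast was -1.77 ± 0.46 for miR-466b-3p (limma adjusted p = 0.153), -1.91 ± 0.56 for miR-466c-3p (limma adjusted p = 0.183) and -0.85 ± 0.46 for miR-466h-5p (limma adjusted p = 0.331). For miR-466h-3p it was -2.51 ± 0.58 (limma adjusted p = 0.144), a value that depends on the pseudocount because the name had no read in ELA 2iL.

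The direction was shared more widely than the calls. In serum, 28 of 28 tested members were lower in ELA, against 54.9% of all tested miRNAs, and for 22 the counting interval lay below 0 (37.7%). In 2iL, 27 of 28 were lower (59.1%), 5 of them with no read in ELA 2iL, and for 16 the counting interval lay below 0 (35.1%). The exception, miR-466f, had a log2 difference of 0.01. So 27 of 28 were lower in both media (42.6%), and in 20 of 28 both ELA libraries lay below both ES libraries (24.0%). The filter itself favours this direction, because 9 of the 28 members had under 10 reads in both ELA libraries (8.35% of all tested) and passed through ES alone. Among the 19 members with at least 10 reads in an ELA library, 19 were lower in serum (51.0% of all such miRNAs) and 19 in 2iL (56.6%), and in 17 both ELA libraries lay below both ES libraries (21.5%). Over all 37 names, 33 were lower and 2 higher in ELA serum (33.5% and 24.8% of all 1907 listed), and 32 were lower and 1 higher in ELA 2iL (34.9% and 18.0%). The members share sequence and hairpins, so their number is not a number of independent observations.

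The size of the differences was read with limits of 1 on the log2 difference and 5 on the mean level. The study set its limits at these values, but the scale of log2(RPM + 1) was chosen here. In serum, 4 members passed the limit on level, and 4 of 4 were lower in ELA by at least 1 (14.6% of the miRNAs at that level). In 2iL 2 of 5 were (25.2%), miR-466b-3p and miR-466c-3p. Under TMM scaling, DESeq2 size factors or totals without the 5 most abundant miRNAs it was 1 of 5, and with a pseudocount of 5 RPM 3 of 6. Without the limit on level, 20 of 28 tested members were lower by at least 1 in serum (17.2%), 19 of 28 in 2iL (29.9%) and 13 of 28 in both media (10.7%). Of the 28, 9 had passed the filter on reads through ES alone (8.35% of all tested), which favours a lower value in ELA. The counts and medians given here were not restricted to the others. With the 5 members at 0 in ELA 2iL set to their bound, 14 were lower by at least 1 in 2iL and 12 in both media. The median difference of the tested members was -1.31 (SD 0.64, n = 28) in serum against -0.15 (SD 1.02, n = 599) over all tested. In 2iL it was -1.28 (SD 0.91) against -0.31 (SD 1.68), and -0.99 with the 5 members at 0 set to their bound. The median of the stage contrast over the members was -1.39 against -0.22 over all tested, and -1.22 with those 5 at their bound. RPM is a share of the library, so these values do not measure molecules per cell.

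Each member's difference was set against that of the summed members. In serum, the exact counting interval of 19 of the 28 tested members held the difference of the summed members (log2 -1.73), and those of 20 overlapped the sum's own interval. The 4 names wholly below it were all 3p (miR-466b-3p, miR-466c-3p, miR-466e-3p and miR-466p-3p), and the 4 wholly above it were all 5p (miR-466b-5p, miR-466c-5p, miR-466a-5p and miR-466h-5p). Those 3p names share sequence, as given above, and are not separate observations. Set against the summed difference itself, a 3p name, miR-466n-3p, also lay above it (log2 interval -1.72 to -0.96). The split by arm thus held only against the sum's interval. In 2iL, 26 of 28 intervals held the summed difference (log2 -1.27). Those of 27 overlapped the sum's interval there, and miR-466n-5p alone lay below it. The interval of miR-466h-5p (-1.23 to 0.14) lay above the summed difference but overlapped the sum's interval. The SD over the members, given above, was larger in 2iL (0.91) than in serum (0.64), and whether the evenness differed between the media was not tested. Intervals in 2iL were wider, since 20 of the 28 members had under 10 reads in ELA 2iL, and an unevenness of the size seen in serum would have been hard to detect there for most names.

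**Figure D4:**
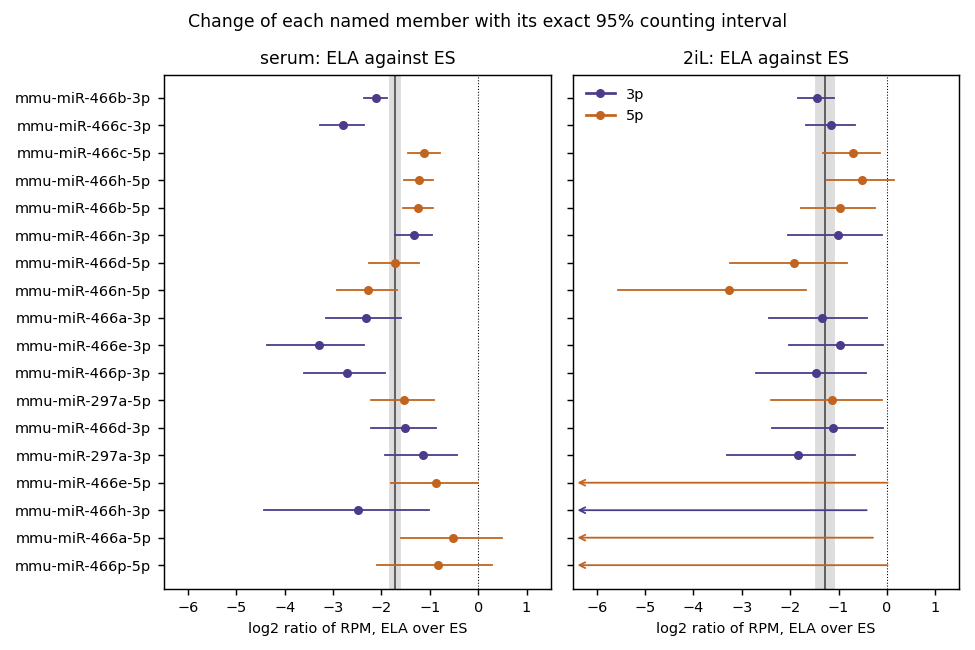
ELA over ES as a log2 ratio of RPM for the 18 named members in serum (left) and 2iL (right). Points are single ratios, horizontal lines exact 95% counting intervals, arrows names with no read in ELA 2iL, and the grey band the summed members (-1.73 and -1.27) with its interval. In serum the 3p names of miR-466b, c, e and p lie left of the band and the 5p names of miR-466b, c and h right of it.

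By arm, the 3p names together were 4.23-fold lower in ELA in serum (3.81 to 4.70), from 399 to 94.2 RPM, and 2.50-fold lower in 2iL (2.14 to 2.93), from 748 to 300 RPM. The 5p names together were 2.56-fold lower in serum (2.32 to 2.83), from 289 to 113 RPM, and 2.31-fold lower in 2iL (1.88 to 2.86), from 397 to 172 RPM. The share of 3p among reads with an arm was 57.9%, 65.3%, 45.5% and 63.5%. ELA serum was the library with the lowest share. The odds of 3p were 0.605 times those in ES in serum (exact 95% interval 0.523 to 0.699) and 0.924 times in 2iL (0.711 to 1.21), an interval that holds 1. Without miR-466b the ratios were 0.627 and 1.02, but reads of shared 3p sequence counted under miR-466c, e or p would still be in them.

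Some hairpins carried this difference. In serum, the ratio of the 3p odds lay below 1 for miR-466b (0.546, 0.414 to 0.722), miR-466c (0.312, 0.209 to 0.460), miR-466e (0.188, 0.0710 to 0.479), miR-466p (0.275, 0.100 to 0.788) and miR-466a (0.287, 0.116 to 0.727). These are the 4 types of the evenly spaced run and miR-466a. A lower 3p share in ELA was not limited to them, as given below for miR-669a and miR-467a. In 2iL the intervals of miR-466b (0.711, 0.400 to 1.33) and miR-466c (0.737, 0.428 to 1.28) held 1. There miR-466e, p and a had 11, 8 and 10 reads in ELA, all of them 3p, so their 3p shares were above those in ES, and their intervals held 1 as well. The ratio of the 3p odds lay above 1 for miR-466n, at 1.92 (1.17 to 3.24) in serum and 4.73 (1.21 to 27.1) in 2iL. Most 5p windows of miR-466n were shared with other names, as given above. For the miR-466b hairpins, 3p reads went from 74.8% in ES serum to 61.8% in ELA serum, and for miR-466n from 59.0% to 73.5%. miR-466h remained a 5p hairpin, with a 3p share between 0% and 14.5%, and the intervals of miR-466d and miR-297a held 1 in both media. Such arm differences were not rare. Of 199 hairpin names of all miRNAs with at least 20 reads in each library, 24.6% had an interval below 1 in serum and 20.1% in 2iL. Among the 3 members of that set (miR-466b, miR-466c and miR-466h) this was so for 2 in serum and 0 in 2iL, and the 3p share was lower in ELA in both media for 3 of 3 (33.2% of the 199). These intervals compare single libraries and cover counting error only. Whether the assignment of reads shared between copies moved with it was not tested.

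**Figure D5:**
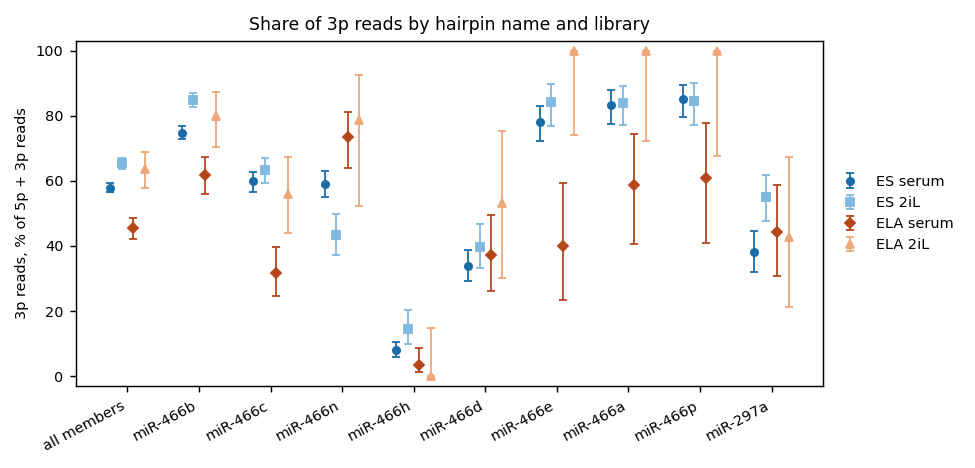
Share of 3p reads among 5p and 3p reads (%), for all members and for 9 hairpin names, in the 4 libraries. Error bars are Wilson 95% intervals (counting error only). ELA serum is lowest for miR-466b (61.8%) and miR-466c (31.7%), and both ELA libraries are above both ES libraries for miR-466n.

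For the medium, no member passed the limma test adjusted over the 599 miRNAs (0 of 28 higher and 0 of 28 lower in 2iL, 0.0% each of all tested). At an unadjusted limma p under 0.05, 10 of 28 were higher in 2iL (18.5%) and 0 lower (10.9%). When library totals left out the 5 most abundant miRNAs, limma called 1 of 28 higher after adjustment (8.18%), and without the filter on reads 3 of 35 (6.07%). edgeR and DESeq2 called 0 members higher after adjustment (3.67% and 5.34% of all tested), and 0 and 1 at an unadjusted p under 0.05 (9.68% and 9.35%). 2iL was higher in 25 of 28 at the ES stage (61.4%), for 20 with an interval above 0 (50.9%). It was higher in 21 of 28 at the ELA stage (60.3%), for 8 with an interval above 0 (36.7%), and in 18 of 28 at both (46.6%). In 7 of 28 both 2iL libraries lay above both serum libraries, a share under the 30.7% of all tested. The 3p names together were 1.88-fold higher in 2iL in ES (1.78 to 1.98) and 3.18-fold in ELA (2.65 to 3.81), the 5p names 1.37-fold (1.28 to 1.47) and 1.52-fold (1.22 to 1.89). Relative to the median medium contrast of all miRNAs with a mean log2 level of at least 5, which was 0.42, the members' median of 0.96 was 0.54 higher, and 18 of 28 members were above it. Only 5 members reached that level themselves, and over all 599 tested miRNAs the median was 0.32. The members' median was smaller under other scalings (0.58 under TMM).

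The other repeats of the same intron, miR-467 and miR-669, had 43 listed names, 28 of them tested, and were lower in ELA as well. In serum 28 of 28 (54.9% of all tested) and in 2iL 27 of 28 (59.1%) were lower in ELA, with medians of -1.44 and -1.53. Of these, 8 had under 10 reads in both ELA libraries and passed the filter through ES alone, and the other 20 were lower in ELA in both media. Their 3 most abundant names were miR-467a-5p (541, 689, 349 and 378 RPM), miR-669a-5p (417, 588, 209 and 363 RPM) and miR-669a-3p (267, 802, 35.0 and 150 RPM). Each was above miR-466b-3p in mean level, and in miR-669a too the 3p arm had the larger difference, -2.89 in serum and -2.41 in 2iL against -0.99 and -0.70 for the 5p arm. Its 3p share went from 39.0% in ES to 14.4% in ELA in serum and from 57.7% to 29.2% in 2iL. That of miR-467a went from 22.4% to 8.52% and from 35.8% to 19.0%. Not all of these hairpins did so: the share was higher in ELA in 2iL for miR-669b, miR-467c and miR-669p, and in serum for miR-669m. As a sum these names were 2.54-fold lower in ELA in serum (2.46 to 2.62) and 2.72-fold in 2iL (2.55 to 2.89), beside 3.31-fold (3.08 to 3.55) and 2.42-fold (2.14 to 2.74) for miR-466 and miR-297. The counting intervals of the sums do not overlap in serum and overlap in 2iL. Whether the hairpins of the intron come from 1 transcript in these cells was not tested.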

How the data were processed

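The authors deposited RPM values of 1907 mature miRNAs in 4 libraries. Per the submitters' notes, they used CASAVA 1.8, Trimmomatic, Bowtie and featureCounts with mm9. The handling of multi-mapping reads is not given in the sources used here. All 4 value columns were used (0 left out). Values were whole multiples of 1 read (100%, within 0.01 reads), so reads were recovered. The largest library had 8056984 and the smallest 587363.

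Members and lists were chosen with earlier results of these data known. The main test was limma 3.58.1 (R 4.3.3) on log2(RPM + 1), pseudocount 1 RPM, with stage and medium as terms (1 residual and 3.79 prior degrees of freedom), two-sided, Benjamini-Hochberg adjusted. It understates the change of low miRNAs. edgeR 4.0.16 and DESeq2 1.42.0 were run on recovered reads as alternatives, and edgeR called 39 miRNAs for stage and 64 for medium. The script was tested on simulated data. Members were named by mean RPM: the 12 highest and the other arms of their hairpins. Others are given by counts, except where an observation concerns a single name, chosen after its values were seen. Intervals (Clopper-Pearson for ratios, Wilson for shares, conditional for odds) and the floor of 3 reads cover counting error only, as reads carry no molecular identifiers. Shared windows and positions were read from mm9 by script (Python 3.11.15). Groups were set by title, and alternatives were other scalings, pseudocounts of 0.5 and 5 RPM and no filter on low values. Counts limited to miRNAs with at least 10 reads in an ELA library, counts over all listed names, counts with members at 0 set aside or at their bound, overlaps with the interval of the sum and the windows shared between hairpins were added after seeing the data.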

Additional observations from a re-analysis of the deposited data

How the results depend on the processing

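All 18 named members kept their lower stage contrast under every alternative run. Among the members, 0 passed for stage in limma on RPM, with DESeq2 size factors and with pseudocounts of 0.5 and 5, against 2 under TMM scaling, 9 with totals without the 5 most abundant miRNAs, 11 without a filter on low values, and 1 each in edgeR and DESeq2. For medium, the 0 became 1 without the top 5 and 3 without a filter and stayed 0 in the other alternatives. The members' median medium contrast lay between 0.46 (without a filter) and 1.00 (pseudocount 0.5), with 0.58 under TMM scaling and 0.61 with DESeq2 size factors. Their median stage contrast was -0.92 with pseudocount 5, -1.54 with pseudocount 0.5 and in between in the other alternatives. Members lower by at least 1, 4 of 4 (serum) and 2 of 5 (2iL) at the level limit, were 20 and 21 of 35 with the limits on reads and level both dropped (9.73% and 23.7% of all 1202 with reads), and 1 of 5 in 2iL under TMM, DESeq2 or top-5 scaling. In serum they were 4 of 5 under TMM, DESeq2 and pseudocount 5, and in 2iL 3 of 6 with pseudocount 5. The summed difference was -1.62 (TMM), -1.53 (DESeq2) and -1.80 (top 5) in serum, and -1.03, -1.04 and -1.03 (top 5) in 2iL. Shares of reads without the top 5 were 0.151%, 0.207%, 0.0434% and 0.102%. The median stage contrast of the miRNAs with a mean log2 level of at least 5 moved from -0.08 (RPM) to 0.09 (TMM), 0.13 (DESeq2) and 0.00 (top 5), that for medium from 0.42 to 0.00, 0.04 and 0.30. Relative to it, the members' median stayed between -1.34 and -1.30 for stage and between 0.54 and 0.57 for medium. Medium contrasts near 0 turned: under TMM, DESeq2 size factors, edgeR and the DESeq2 test they were -0.23, -0.19, -0.26 and -0.22 for miR-466h-5p, -0.26, -0.22, -0.28 and -0.24 for miR-466b-5p, -0.40, -0.36, -0.44 and -0.40 for miR-466n-3p (-0.12 without the top 5, -0.0062 with pseudocount 5), and -0.13, -0.090, -0.026 and -0.0028 for miR-466n-5p. For miR-466h-3p it was 0.11 with pseudocount 5 and 0.025 in edgeR. The cause of these changes was not tested. The medium term of the fit pairs each ELA library with the ES library it came from, and the labels number no replicates for any other block. Leaving out a library leaves no residual degree of freedom, and the within-medium values stand in its place. Summing members of identical mature sequence was not run, since the sequence table held 4 of the 37. The depth of ELA 2iL limits most single names there.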
